A study of Mus musculus with 6 samples.

Results

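The interferon-induced GTPase genes Gbp2, Gbp2b, Gbp3, Gbp5, Gbp6, Gbp7, Gbp9, Irgm1, Irgm2 and Igtp, 10 in all, are described here in mouse microglia given conditioned medium. They were taken by symbol from the authors' table of 26096 genes, and all 10 of 10 were found there. They had been picked because earlier results of these same data showed them lower after treatment, so their differences between the media are given as a description, without a test. The samples were wild-type microglia, the resident macrophages of the brain. In 3 samples (ferroptotic medium) the cells received culture medium of bone marrow-derived macrophages (BMDMs) undergoing ferroptosis, an iron-dependent cell death driven by lipid peroxidation. In 3 samples (control medium) they received the medium of normal BMDMs. No source used here gives the agent that set off ferroptosis, the time of exposure, or the origin and age of the microglia.

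Guanylate-binding proteins (GBPs) and immunity-related GTPases (IRGs) are among the proteins that interferon-gamma, and to a lesser degree type I interferons, induce most strongly in macrophages. GBPs assemble on the membranes around intracellular bacteria and parasites, and on bacteria free in the cytosol, where they help to expose microbial products to inflammasomes. Effector IRGs such as Irga6, Irgb6 and Irgb10 load onto pathogen vacuoles and disrupt them. The regulators Irgm1, Irgm2 and Igtp (also called Irgm3) sit on the cell's own membranes and hold the effectors inactive there. Transcription of both families is driven through GAS elements, which answer interferon-gamma, and ISRE elements, which bind factors such as IRF1 and IRF9.

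Depth was read from the steps of the deposited log2 values, whose reads may be rounded estimates. It came to 43419446 to 50557794 reads in genes per control library and 39624311 to 41953603 per ferroptotic library. The correlation of log2 values across genes, which are not independent replicates, was at least 0.980 within a group and 0.962 to 0.967 between groups. Of 15597 genes tested, 3077 (19.7%) were higher and 3552 (22.8%) lower with ferroptotic medium (limma, adjusted p threshold 0.05), with a median log2 difference of -0.01. Separate cultures are not stated in the labels. The p-values therefore cover only the spread among these 6 samples, and that spread may be technical. Markers went partly against the microglia label. P2ry12, Tmem119 and Fcrls, which define microglia in the brain, had 3, 21 and 5 reads over all 6 libraries. Sall1 and Siglech had no row, while the macrophage gene Csf1r had 76237 ± 1842 normalized counts with control medium (SD, n = 3). A normalized count is a read number divided by the library's size factor.

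Sequences at the transcription starts are shown first, because letters of the ISRE and GAS, known elements of interferon-induced genes, were searched for in them. RefSeq start-site windows (build GRCm38.p6, 250 bases before to 50 bases after the start) matched 8 of the 10 genes by symbol, and Gbp6 and Gbp9 had no entry. The letters GAAANNGAAA, read on either strand (TTTCNNTTTC on the other), stood for the ISRE, and TTCNNNGAA, the same on both strands, for the GAS. The parts of the windows that hold the matches are printed below 5′ to 3′ along each gene's strand, with matches to either motif in capitals.
Gbp2b (chr3:142594700-142594729, plus strand): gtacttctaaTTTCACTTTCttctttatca
Gbp2 (chr3:142620594-142620623, plus strand): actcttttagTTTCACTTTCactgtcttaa
Gbp3 (chr3:142559989-142560024, plus strand): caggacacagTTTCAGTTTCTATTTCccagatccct
Irgm1 (chr11:48871425-48871460, minus strand): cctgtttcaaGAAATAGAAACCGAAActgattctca
Igtp (chr11:58199501-58199541, plus strand): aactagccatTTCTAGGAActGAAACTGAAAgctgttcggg
Irgm2 (chr11:58214892-58214932, plus strand): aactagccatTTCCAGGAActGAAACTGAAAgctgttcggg
Gbp7 (chr3:142530220-142530302, plus strand): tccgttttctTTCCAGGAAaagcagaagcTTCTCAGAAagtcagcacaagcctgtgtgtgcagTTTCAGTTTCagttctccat
Gbp5 (chr3:142496684-142496900, plus strand): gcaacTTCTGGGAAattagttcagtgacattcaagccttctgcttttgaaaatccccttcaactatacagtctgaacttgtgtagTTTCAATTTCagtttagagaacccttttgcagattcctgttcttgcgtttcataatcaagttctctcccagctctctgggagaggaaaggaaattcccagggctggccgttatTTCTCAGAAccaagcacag

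ISRE letters were present in a window of 8 of the 8 matched genes, against 1131 of 32851 windows of this length in the table (3.44%). GAS letters were present in 4 of the 8, Gbp5, Gbp7, Igtp and Irgm2, against 2726 of the 32851 windows (8.30%), and both motifs in the same 4 against 149 windows (0.454%). In Gbp3 and Irgm1 the motif occurs as 2 overlapping copies, which share a half-site. Gbp3 has a second RefSeq window, in which neither motif was found, so the 8 genes had 9 windows. They were counted by gene, over any of their windows, while the 32851 windows were counted singly. Of 8 further GTPases of these families with a window, 4 held ISRE letters, 3 GAS letters and 3 both. The stretches of Igtp and Irgm2 are identical at 40 of 41 bases. They differ by T14C, counted from the 5′ end with the Igtp base first, which lies within the GAS letters at a position the motif leaves free. A match describes these letters and is not evidence of binding.

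**Figure D1:**
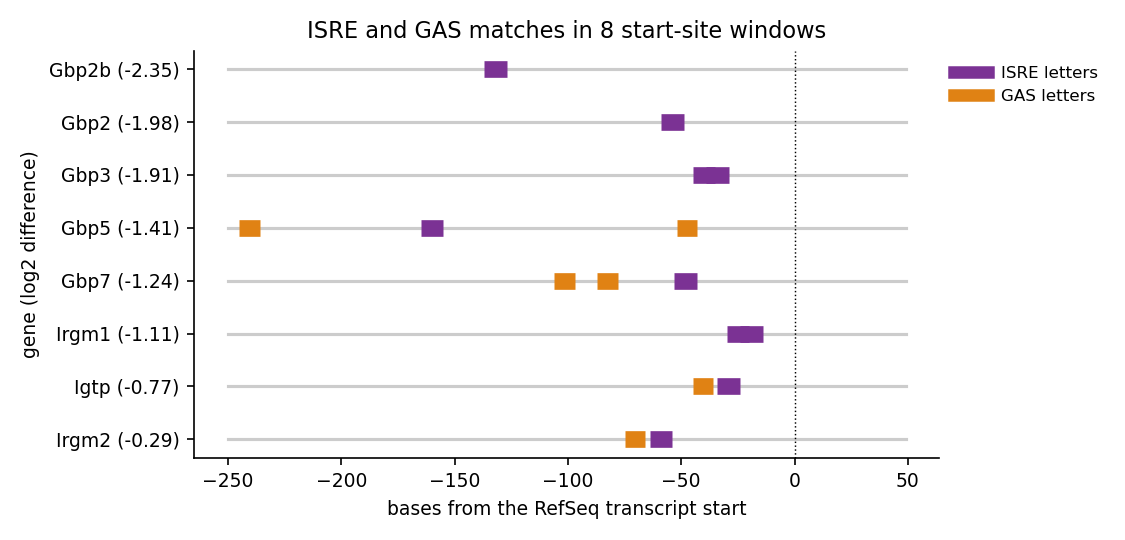
Matches to the ISRE (purple) and GAS (orange) letters in the start-site windows of 8 genes, on a horizontal axis in bases from the RefSeq transcript start; grey lines mark each 300-base window. Genes are ordered by their log2 difference (ferroptotic minus control medium, in brackets), from -2.35 for Gbp2b at the top to -0.29 for Irgm2 at the bottom.

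All 10 genes were lower with ferroptotic medium, from 15.8% of the control mean for Gbp6 to 81.5% for Irgm2. In each of them the 3 ferroptotic libraries lay below the 3 control libraries, a separation that 28.2% of all genes tested showed in this direction. The limma fit called 10 of the 10 lower, against 22.8% of genes tested, and 8 of them at least 2-fold lower, against 3.7%. Because the genes were chosen on this contrast, nothing is read from those counts. The log2 differences ran from -2.59 to -0.29 with a median of -1.32. The 4 genes with ISRE letters alone (Gbp2, Gbp2b, Gbp3 and Irgm1) had log2 differences of -2.35 to -1.11 and the 4 with both motifs (Gbp5, Gbp7, Igtp and Irgm2) of -1.41 to -0.29. These ranges overlap, and no test is given. Of the other GTPases searched, Gm12250 (-2.60), Tgtp1 (-1.64) and Tgtp2 (-1.51) held both motifs, and 9930111J21Rik1 (-0.67) held ISRE letters alone. Those with neither motif were Gm5431 (-1.62), Ifi47 (-0.45), 9930111J21Rik2 (-0.44) and Irgq (1.00). Gm5431 thus fell more than Tgtp2, and no link of motif to fall is read from these few genes. In bulk RNA, fewer cells that express a gene and less RNA per cell cannot be told apart.

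**Figure D2:**
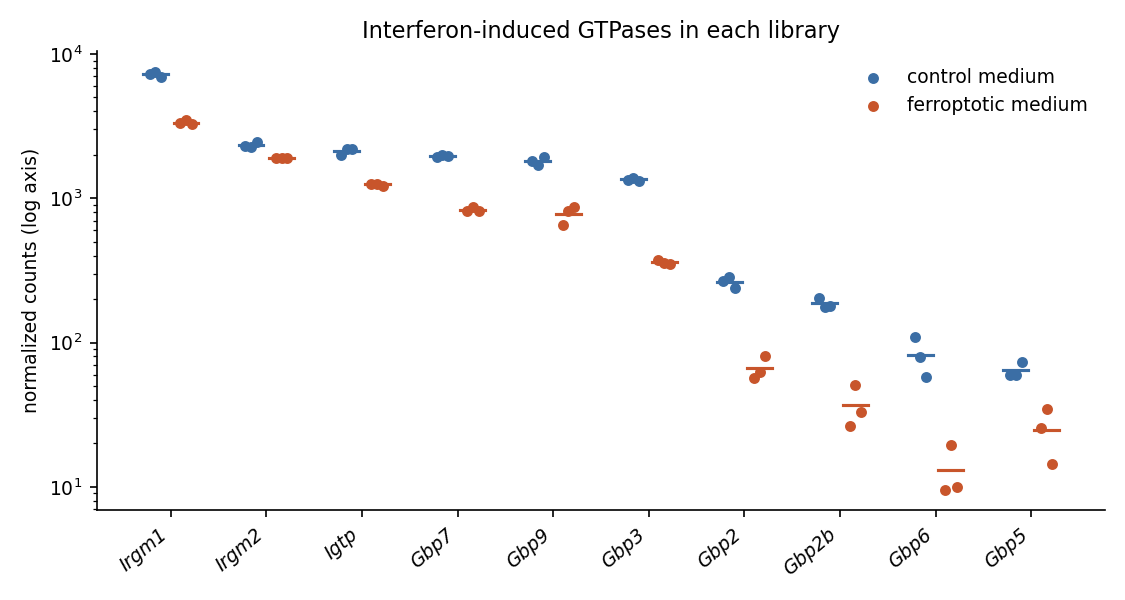
Normalized counts of the 10 GTPase genes in each of the 6 libraries, on a log axis; points are libraries and short lines are group means (n = 3 each, blue for control medium and orange for ferroptotic medium). The orange points lie below the blue points for every gene, and the means differ least for Irgm2 and most for Gbp6.

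Among the regulators, Irgm1, best known for its role in resistance to mycobacteria and in the control of autophagy, had 7255, 7536 and 6947 normalized counts with control medium and 3303, 3458 and 3274 with ferroptotic medium. The groups were well apart, and the log2 difference was -1.11 (SE 0.04). Igtp, the regulator that sits on the endoplasmic reticulum and lipid droplets, had 1978, 2205 and 2189 against 1262, 1253 and 1225 normalized counts. The log2 difference of Igtp was -0.77 (SE 0.06), which leaves 58.7% of its control level. Irgm2, a regulator found at the Golgi, had 2311, 2249 and 2453 against 1911, 1900.1 and 1905 normalized counts. The groups did not overlap, but they lay nearer to each other than for any other of the 10 genes, and the log2 difference was -0.29 (SE 0.05).

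The ferroptotic values of Irgm2 were close together. The coefficient of variation (SD over mean) of these values was 0.283%, below the 2.36% that counting error alone would give. Igtp and Irgm2 lie next to each other on chromosome 11 and their gene models share 162 exon bases on the same strand (8.01% of Igtp and 4.39% of Irgm2). Of all 50-base words in Igtp transcripts, 11.8% also occur in Irgm2. No source used here says how reads in such stretches were assigned.

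Of the 7 GBP genes, 5 lie side by side on chromosome 3, in the order Gbp5, Gbp7, Gbp3, Gbp2b and Gbp2. Gbp2, which is recruited to the vacuoles of the parasite Toxoplasma gondii, had 266, 284 and 237 normalized counts with control medium and 56.4, 62.4 and 80.9 with ferroptotic medium. Its log2 difference was -1.98 (SE 0.17), a mean of 25.3% of the control level. Gbp2b, the gene of mouse GBP1, had 204, 177 and 179 against 26.6, 51.2 and 33.2 normalized counts. All 3 control values were over 3 times the highest ferroptotic one, and the log2 difference was -2.35 (SE 0.25). Gbp3 had 1342, 1388 and 1323 against 374, 355 and 350.0 normalized counts. The replicates of each group were close together, and the log2 difference was -1.91 (SE 0.07).

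Gbp7 had 1933, 1989.8 and 1961 normalized counts with control medium and 817, 867 and 809.6 with ferroptotic medium. The spread within each group was small beside the gap, and the log2 difference was -1.24 (SE 0.06). Gbp7 shares 637 exon bases (11.3%) with the pseudogene Gm43802, which had only 32 reads over all libraries. Gbp5, reported to promote assembly of the NLRP3 inflammasome, was scarce, with 59.7, 59.7 and 73.4 against 25.5, 34.8 and 14.4 normalized counts. It rested on 278 reads in all, and its log2 difference of -1.41 had an SE of 0.33. Under the alternatives tried it ran from -1.69 without ferroptotic replicate 2 to -1.08 without ferroptotic replicate 3.

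The other 2 GBP genes, Gbp9 and Gbp6, belong to the cluster on chromosome 5. Gbp9 had 1809, 1696 and 1939 normalized counts with control medium and 656, 810.4 and 875 with ferroptotic medium. Relative to their mean, the ferroptotic libraries were more spread than the control ones (coefficient of variation 14.4% against 6.70%). The groups did not overlap, and the log2 difference was -1.22 (SE 0.11). Gbp6 had 109, 79.9 and 57.8 against 9.57, 19.4 and 9.97 normalized counts. Its log2 difference of -2.59 (SE 0.37) was the largest of the 10 and the least precise, resting on 302 reads in all. With a pseudocount of 10 in place of 1 it was -1.99. Gbp6 cannot be told apart well from its neighbours: 70.7% of its 50-base words occur in other genes, 65.0% in the overlapping gene Gm43302, with which it shares 1726 exon bases. Gm43302 itself had 237 ± 18.9 normalized counts with control medium and 96.8 ± 22.3 with ferroptotic medium (SD, n = 3), a log2 difference of -1.30 (limma adjusted p = 0.000481).

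Reads of the 10 genes together, on the scale of normalized counts and not per length, summed to 17267, 17665 and 17359 with control medium and 8441, 8812 and 8577 with ferroptotic medium. The GBP genes made up 33.1%, 32.1% and 33.2% of this sum with control medium and 23.3%, 25.0% and 25.3% of it with ferroptotic medium. Irgm1 alone supplied 40.02% to 42.7% with control and 38.2% to 39.2% with ferroptotic medium. The share of the regulators was thus higher with ferroptotic medium. The median log2 difference was -1.91 for the 7 GBP genes and -0.77 for the 3 regulators, and the smallest difference of a GBP gene, -1.22, exceeded that of Irgm1, -1.11. No single library was highest throughout: control replicates 1, 2 and 3 held the highest control value for 2, 5 and 3 of the genes, and the ferroptotic replicates for 3, 5 and 2.

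Divided by exon length (GENCODE M21), Irgm1 had the highest level with control medium, 1247 ± 50.8 normalized counts per kb (SD, n = 3). It was followed by Igtp with 1051 ± 62.6 and Irgm2 with 634 ± 28.4 per kb. Gbp3 (414 ± 10.4), Gbp9 (351 ± 23.5) and Gbp7 (349 ± 5.04 per kb) came next. Gbp2 (104 ± 9.50), Gbp2b (66.1 ± 5.30), Gbp6 (13.8 ± 4.29) and Gbp5 (9.69 ± 1.19 per kb) were lowest. Neighbours in this order did not overlap over the 3 libraries, except Gbp9 with Gbp7 and Gbp6 with Gbp5. With ferroptotic medium the level of Igtp, 617 ± 9.64 per kb, stood above that of Irgm1, 576 ± 17.1, without overlap. Gbp3, ahead of Gbp9 and Gbp7 with control medium, stood behind both with ferroptotic medium, at 110 ± 3.93 per kb against 151 ± 21.7 for Gbp9 and 148 ± 5.54 for Gbp7. The authors' FPKM (fragments per kb of transcript, scaled to depth) was given for 8 of the 10 genes, without Igtp and Irgm2. Among those 8, Irgm1 was highest with control medium at 25.9 ± 1.16 and Gbp5 lowest at 0.198 ± 0.0235.

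**Figure D3:**
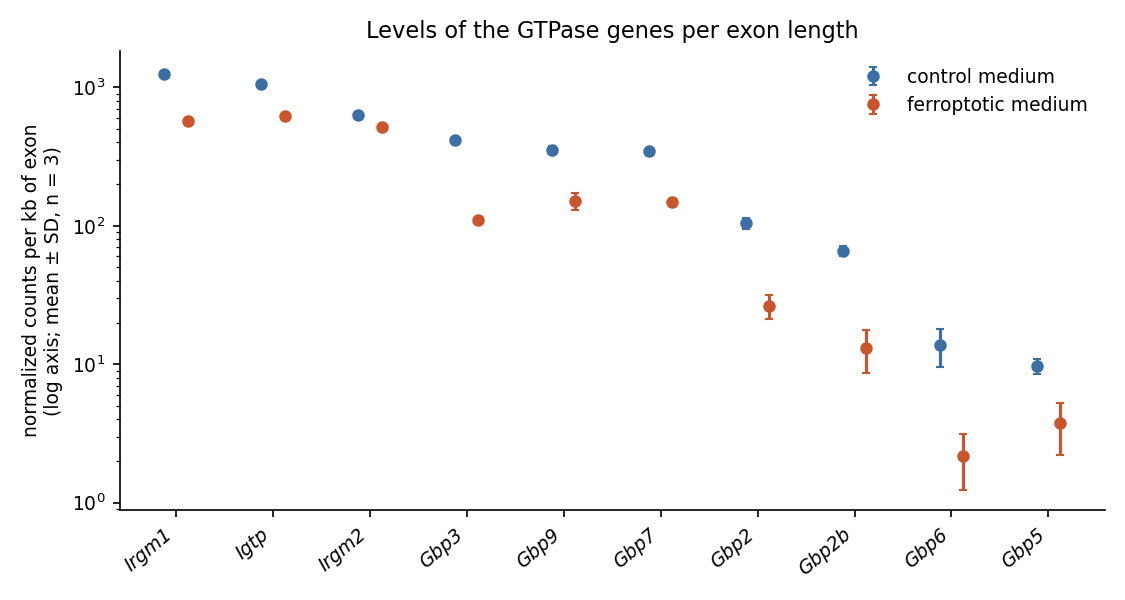
Level of each GTPase gene per kb of exon with control (blue) and ferroptotic (orange) medium, as the mean ± SD of 3 libraries on a log axis, in the order of the control levels. Igtp stands above Irgm1 and Gbp3 below Gbp9 and Gbp7 with ferroptotic medium only.

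Other members of these families were read from a list of 22 further GTPases, of which 19 had a row and 18 were tested. The list includes Irgq, which is not known for induction by interferon. In the limma fit 11 of the 18 fell, 1 rose and 6 did not pass, with 22.8% of all genes tested falling and 19.7% rising, and their median log2 difference was -1.07 against -0.01 over all genes tested. At least 2-fold falls numbered 8 (3.7% of all genes tested). The list was drawn up with results of these data known, so it is not independent support. The genes of the effector IRGs Irgb10, Irga6 and Irgb6 were among those that fell. Gm12250, the gene of Irgb10, fell from 112 ± 17.5 to 17.4 ± 1.27 normalized counts (SD, n = 3), a log2 difference of -2.60 (limma adjusted p = 2.59e-05). Iigp1, the gene of Irga6, fell by 2.67 on the log2 scale, from 48.2 ± 19.97 to 7.31 ± 5.28 normalized counts (limma adjusted p = 0.00346). Tgtp2, 1 of the 2 genes of Irgb6, fell by 1.51 (limma adjusted p = 0.000469) and its near copy Tgtp1 by 1.64 (limma adjusted p = 0.00242). Tgtp1 and Tgtp2 share over 80% of their 50-base words with other genes, so the split of reads between them is uncertain.

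Among the remaining GBP genes, Gbp4 fell from 195 ± 29.8 to 58.7 ± 6.96 normalized counts, a log2 difference of -1.71 (limma adjusted p = 8.15e-05). Gbp10, which shares 84.1% of its words with other genes, fell by 1.47 (limma adjusted p = 0.0129), a call lost without control replicate 3 (adjusted p = 0.0517). Gbp8 had 18.2 ± 8.15 and 19.1 ± 1.37 normalized counts, and its log2 difference of 0.17 had a 95% interval from -0.80 to 1.13. Mx1, a dynamin-like antiviral protein, fell from 697 ± 68.8 to 115 ± 16.1 normalized counts, a log2 difference of -2.59 (limma adjusted p = 1.14e-06). Its paralogue Mx2 fell by only 0.23 (limma adjusted p = 0.0263), and 5 of the 14 alternatives lost that call. Gm5431 (-1.62), 9930111J21Rik1 (-0.67) and 9930111J21Rik2 (-0.44), less studied IRG genes beside Irgm1, fell as well (limma adjusted p at most 0.000226). Of the words of 9930111J21Rik1, 82.9% occur in other genes, as do 59.2% of those of 9930111J21Rik2 and 37.3% of those of Gm5431, so their separate values are uncertain.

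The very large inducible GTPases did not pass. Gvin1 had 7297 ± 279 and 7378 ± 576 normalized counts, and its log2 difference of 0.01 had a 95% interval from -0.12 to 0.15. Its near copy Gm4070 had a log2 difference of -0.03 (-0.16 to 0.11) and Gm8979 one of 0.05 (-0.14 to 0.24). Gvin1 and Gm4070 share 98.3% of the words of Gvin1, so their separate values are uncertain. Ifi47, the gene of the effector Irgd, had 1038, 468 and 1067 normalized counts with control medium and 561, 588 and 610.3 with ferroptotic medium. Control replicate 2 was lower than all the others. The log2 difference of Ifi47 was -0.45 (limma adjusted p = 0.368) with that library and -0.84 (adjusted p = 0.000144) without it. Irgq, an IRG-related gene not known for induction by interferon, was the single rise, from 676 ± 51.7 to 1351 ± 133 normalized counts (log2 difference 1.00, limma adjusted p = 4.03e-05). Gm4951 had 55 reads in all and did not pass, F830016B08Rik with 19 reads was not tested, and Gbp11, Gm4841 and Irgc1 had no row.

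The 10 GTPase genes lie in 4 clusters of the GBP and IRG families, and listed genes such as Iigp1 and Mx1 lie outside them. The nearest 2 tested protein-coding genes outside these families on each side, a rule added after the data were seen, gave 16 flanking genes. In the limma fit 4 of the 16 were higher and 3 lower (19.7% and 22.8% of all genes tested). The median log2 difference of the 16 was -0.06. On the Irgm2 side of its cluster, the nearest flanking gene was 4930438A08Rik. It had 2.94, 10.1 and 2.94 normalized counts with control medium and 257, 304 and 332 with ferroptotic medium. Its log2 difference was 5.74 (limma adjusted p = 8.38e-06), and any relation to the level of Irgm2 was not tested.

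**Figure D4:**
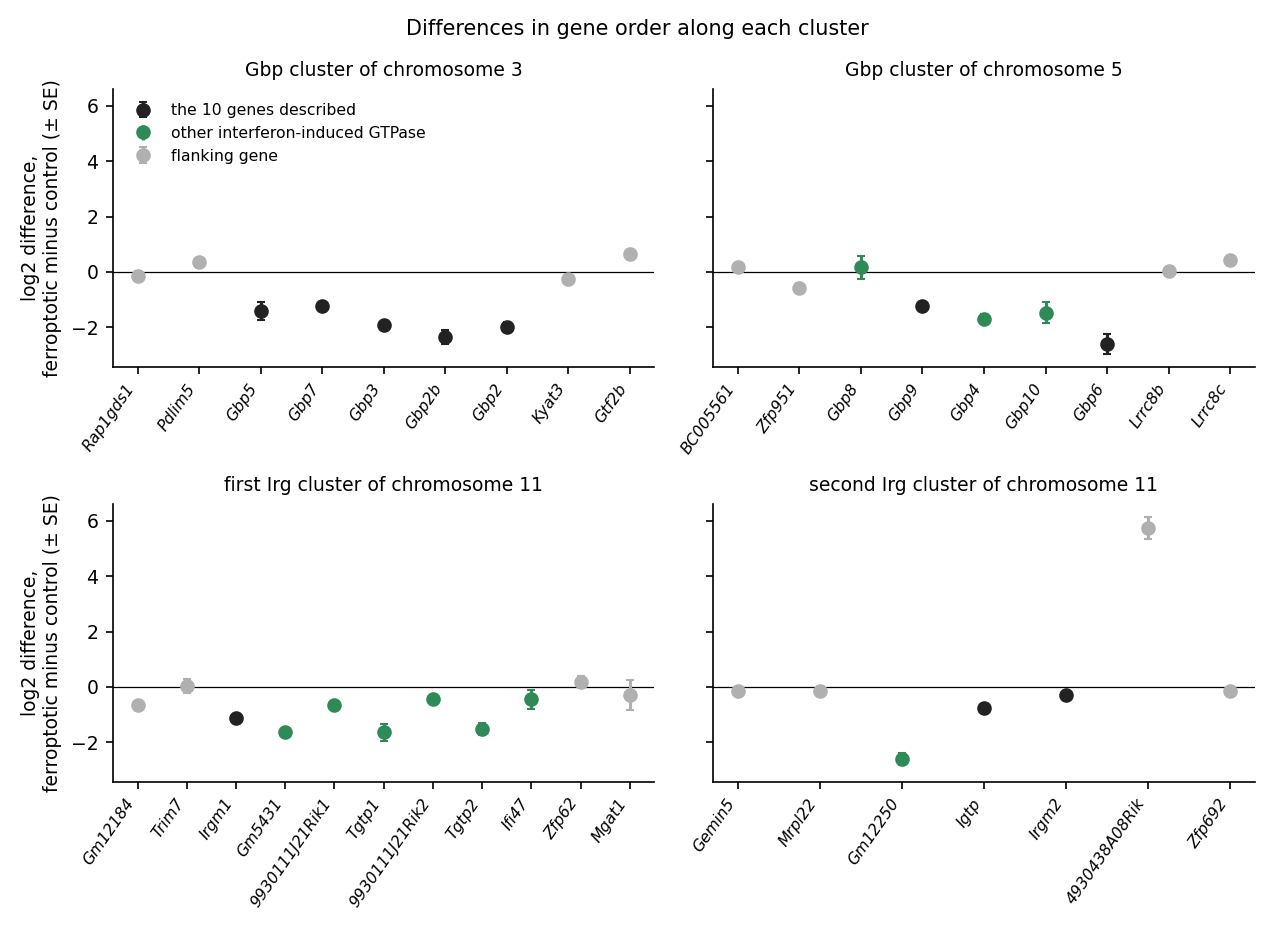
Log2 difference (ferroptotic minus control medium, ± SE) of each gene in its order along 4 clusters, with the 10 GTPase genes in black, other interferon-induced GTPases in green and flanking genes in grey. The black points lie between -2.59 and -0.29, and 4930438A08Rik stands at 5.74 in the panel of the second cluster of chromosome 11.

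Genes of the interferon-gamma pathway moved in both directions. Of 15 tested genes of the receptor, its kinases and its transcription factors, 6 rose and 4 fell (19.7% and 22.8% of all genes tested), with a median log2 difference of 0.07. Irf2 (-0.67), the receptor chain Ifngr2 (-0.30) and the inhibitor Pias1 (-0.28) were among those that fell (limma adjusted p at most 0.00523). The receptor chain Ifngr1 had a log2 difference of -0.21 (95% interval -0.81 to 0.38) and Irf1 one of -0.16 (-0.68 to 0.37). Neither passed, although Irf1 did without control replicate 2 (-0.39, adjusted p = 0.0300). The feedback inhibitor Socs1 (-0.18, interval -0.60 to 0.25), the phosphatase Ptpn2 (0.07) and Batf2 (0.57) did not pass either.

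Rises in this pathway were led by the inhibitor Socs3, from 3797 ± 160 to 19639 ± 525 normalized counts (log2 difference 2.37, limma adjusted p = 4.26e-09). Cebpb rose by 1.32 (limma adjusted p = 1.80e-07). Stat3 (0.21), Jak2 (0.19), Irf8 (0.18) and Jak1 (0.13) rose by small amounts (limma adjusted p at most 0.0214), and Jak2 lost its call in 4 of 14 alternatives. In the type I interferon pathway 3 of 9 genes fell and 1 rose (22.8% and 19.7% of all genes tested). Those that fell were the deconjugating enzyme Usp18 (-0.86), Stat2 (-0.77) and Irf7 (-0.54), each with a limma adjusted p at or below 7.04e-06, and Ifnar1 rose by 0.17 (adjusted p = 0.0119). Irf9, a partner of STAT2, had a log2 difference of -0.11 (95% interval -0.24 to 0.01) and did not pass. Nor did Ifnar2, Tyk2, Irf3 and Irf5.

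Of 14 listed interferons and cytokines that induce interferon-gamma, 3 had a row. Ifng had none. Ifnb1 was scarce, with 18.6, 23.5 and 10.8 against 6.38, 4.09 and 6.65 normalized counts. Its fall (log2 difference -1.43, limma adjusted p = 0.0490) was lost in 8 of 14 alternatives. Il18 fell by 0.92 (limma adjusted p = 5.17e-06), and Il27 rose by 1.09 (limma adjusted p = 0.000149). T and NK cells, the usual sources of interferon-gamma, were represented by 3 of 10 listed markers, and the sum of those was 0 to 10.8 normalized counts with control medium and 0 to 3.32 with ferroptotic medium.

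Other targets of interferon-gamma moved in both directions. Of 13 tested, 8 fell and 4 rose (22.8% and 19.7% of all genes tested), with a median log2 difference of -0.59. The Fc receptor gene Fcgr1 fell from 6827 ± 122 to 2800.4 ± 39.8 normalized counts (-1.29, limma adjusted p = 5.18e-08), and the immunoproteasome subunits Psmb10 (-1.23) and Psmb8 (-0.59) fell with it (limma adjusted p at most 9.04e-05). The checkpoint ligand Cd274 rose from 599 ± 44.0 to 2493 ± 152 normalized counts (2.06, limma adjusted p = 1.79e-07). Nos2, the inducible nitric oxide synthase, rose by 0.84, Wars by 0.82 and Cd74 by 0.39 (limma adjusted p at most 0.0271), and 4 of 14 alternatives lost the call of Cd74. H2-Ab1 (-0.24) did not pass, and the class II master regulator Ciita had 7 reads in all and was not tested.

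Type I interferon-stimulated genes fell nearly throughout the list: 18 of 20 fell and none rose (22.8% and 19.7% of all genes tested), with a median log2 difference of -0.76. The smallest p-values were those of Ifit3 (log2 difference -2.57), Ifit2 (-2.00), Cmpk2 (-1.86), Rsad2 (-1.49), Ifi44 (-1.05) and Ifit1 (-1.44), with limma adjusted p at or below 4.25e-07. Oas2 (-0.67, 95% interval -1.44 to 0.09) and Oasl1 (-0.07, interval -0.76 to 0.62) did not pass. The median over the 10 GTPase genes, -1.32, was thus below that over these targets. No test of that difference is given, since the 10 were chosen with these values known.

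**Figure D5:**
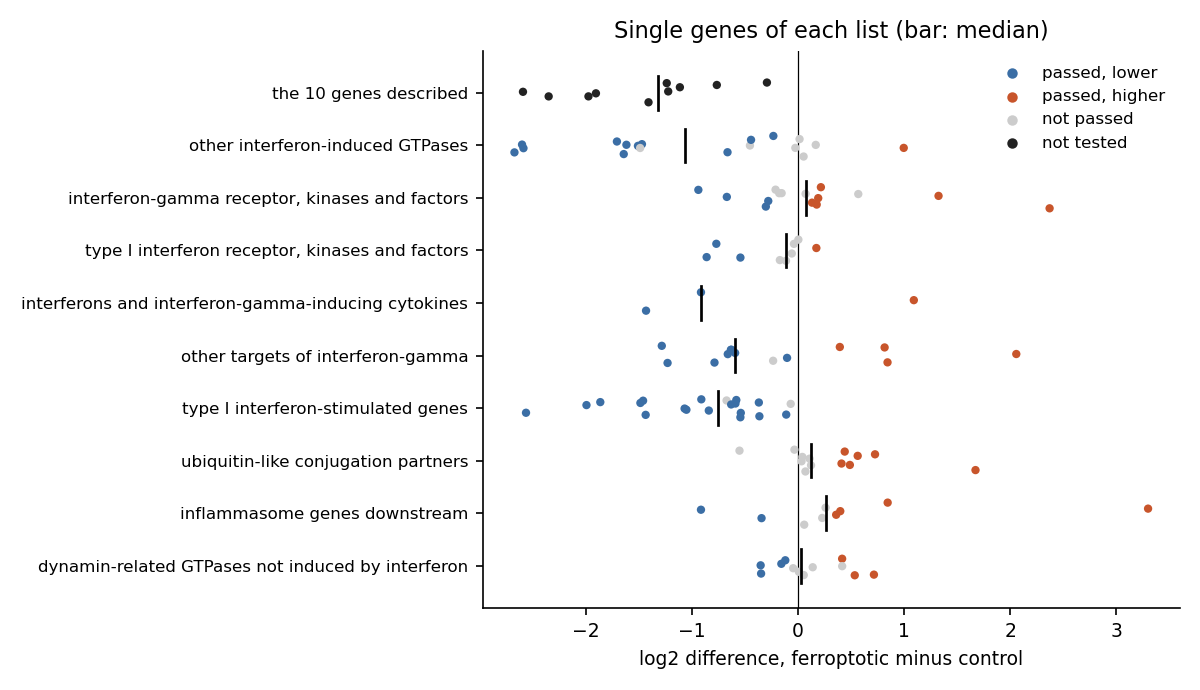
Log2 difference (ferroptotic minus control medium) of single genes in each list, with black for the 10 GTPase genes (not tested), blue for genes that fell, orange for those that rose and grey for those that did not pass; black bars are medians. The medians stand at -1.32 for the 10 genes, -1.07 for the other GTPases and -0.76 for type I interferon-stimulated genes, and at 0.03 for dynamin-related GTPases.

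Genes whose products act together with the GTPases were examined next. The ubiquitin-like conjugation system places IRGs and GBPs on pathogen vacuoles. Of its 13 tested genes 6 rose and none fell (19.7% and 22.8% of all genes tested). Sqstm1, the adaptor p62, rose from 19294 ± 525 to 61505 ± 1682 normalized counts (1.67, limma adjusted p = 6.89e-09). Gabarapl1 (0.73), Map1lc3a (0.56), Atg7 (0.49), Atg12 (0.44) and Map1lc3b (0.41) rose as well (limma adjusted p at most 0.0426), and Map1lc3a lost its call in 9 of 14 alternatives. Of 9 tested inflammasome genes 4 rose and 2 fell (19.7% and 22.8% of all genes tested). Il1b rose by 3.30, Nlrp3 by 0.84, Casp4, the sensor of bacterial lipopolysaccharide, by 0.40 and Casp1 by 0.36, while Il18 fell by 0.92 and the pore-forming Gsdmd by 0.34 (limma adjusted p at most 0.00238). Aim2, Nlrc4 and Naip5 did not pass, and Pycard had 11 reads in all.

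Dynamin-related GTPases outside the interferon response served as a comparison of gene family. Of 12 tested, 3 rose and 4 fell (19.7% and 22.8% of all genes tested). The 12 had a median log2 difference of 0.03 and a range of -0.35 to 0.71. Ehd1 (0.71), Dnm1 (0.53) and Dnm2 (0.42) rose, and Ehd4 (-0.35), Atl2 (-0.35), Opa1 (-0.16) and Atl3 (-0.12) fell (limma adjusted p at most 0.0481). The count of 7 became 4 without control replicate 3. Of the 14 alternatives, 10 lost the call of Atl3, 8 that of Atl2 and 4 that of Opa1.

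Outside these lists, the profile nearest to the mean of the 10 genes over the 6 libraries was that of Knstrn, a kinetochore protein gene. The measure was the root-mean-square distance of centred log2 values, 0.04 for Knstrn among 15102 genes. Asf1b, a histone chaperone (0.07), E2f8, a transcription factor of the cell cycle (0.08), Rasgef1b (0.08) and Rrm2, a subunit of ribonucleotide reductase (0.08), followed. The 10 genes themselves lay at 0.14 (Gbp7) to 0.64 (Gbp6) from their own mean. Knstrn had 2268 ± 63.3 normalized counts with control medium and 786 ± 98.4 with ferroptotic medium.

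Markers of cell types also moved with the media, and their part in the results above was not tested. The summed level of 8 measured microglial markers was 81080 to 84537 normalized counts with control medium and 62116 to 63670 with ferroptotic medium. Csf1r, which other macrophages also express, supplied most of it, with means of 76237 and 58594. That of 6 macrophage lineage markers was 277213 to 291839 and 303526 to 310051, mostly from Lyz2, with means of 207348 and 229156. Adgre1 (log2 difference 0.73), Fcer1g (0.19) and Tyrobp (0.19) were also higher with ferroptotic medium. Cd68 was lower (-0.28), and Ptprc (0.06) did not pass. Neutrophil markers summed to 9.25 to 15.7 and 133 to 160, carried by S100a8, with S100a9, Ly6g, Retnlg and Cxcr2 without a row. Neuronal markers summed to 5.88 to 16.6 and 55.3 to 69.6, carried by Tubb3, with Rbfox3, Snap25, Syt1 and Stmn2 without a row. Astrocyte markers summed to 880 to 977 and 1152 to 1218, carried by Gja1 (means of 769 and 1084), with Aqp4 without a row. Aldh1l1 was lower with ferroptotic medium (log2 difference -0.64), and Gfap had means of 28.4 and 28.1. Slc1a3 and Slc1a2 had 5 and 3 reads in all. Oligodendrocyte markers summed to 8821 to 9383 and 6139 to 6351, with Mog without a row; Mbp, the main part, had means of 6608 and 4101, while Mag was higher with ferroptotic medium (log2 difference 1.01). The sums of endothelial markers, 2100 to 2356 and 2248 to 2435, overlapped between the media and came mostly from Flt1 (means of 1904 and 1948). Pecam1 was higher with ferroptotic medium (log2 difference 0.51), while Kdr (0.70) and Cdh5 (-0.43) did not pass. Tek had 11 reads in all, and Cldn5 had no row.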

How the data were processed

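RNA of 6 microglia samples was sequenced as mRNA libraries, per the labels' protocols. The submitters' processing notes name R 3.4.3, DESeq2 1.18.1, fastp 0.17.1 and HISAT2 2.1.0; genome build, counting tool and strand setting are not named in them. The authors deposited log2 values per gene and library, which behave as log2 of a normalized count plus 1: undoing the log gave whole reads, within 0.01, for 100% of values. The deposited FPKM values of 1699 genes were used for levels only. Here limma 3.58.1 (trend, robust, two-sided; R 4.3.3), with medium as the one term, was fitted to the deposited log2 values of 15597 genes reaching 10 normalized counts in 3 or more libraries, where a value rests on about 10 reads. P-values were adjusted by Benjamini-Hochberg over these genes (threshold 0.05); SE is moderated. Differences are ferroptotic minus control on the log2(normalized count + 1) scale, which understates the change of low genes. Exon lengths and overlaps came from GENCODE M21, which holds 99.8% of the gene IDs, and sequence sharing was counted in 50-base words. The members and lists were chosen with earlier results of these data known. Genes named are the members, the listed GTPases with reads, in other lists up to 6 with the smallest p-values and all where 5 or fewer are counted, 9 set signalling genes, and the 5 nearest profiles. A signalling gene is not reported here by name. The flanking genes, Gm43302, Gm43802 and the motif search were added after the data were seen. Replicates of 1 group were not copies (chi-square per degree of freedom 16.6 to 23.3). There were 14 alternatives: filters, pseudocounts, normalization, variance model, replicate block and leaving out each library. The fit was tested on simulated data.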

Additional observations from a re-analysis of the deposited data

How the results depend on the processing

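All 10 GTPase genes stayed below control and were called lower under each of the 14 alternatives. Because they were chosen on this contrast in the same libraries, nothing is read from those calls. Over all genes, the count called in either direction ran from 5798 to 6732, against 6629. The count called lower ran from 3030 to 3597, against 3552. Gbp6 moved to -1.99 with a pseudocount of 10, and Irgm1 to -1.06 and Irgm2 to -0.24 with quantile normalization. Of the counts per list, that of dynamin-related GTPases moved most, from 7 to 4 with quantile normalization and to 4 with limma without trend and robust. Leaving out single libraries gave 4 to 6 for it. Over the 14 alternatives, other targets of interferon-gamma ran from 9 to 12 (12 in the main test), type I stimulated genes from 16 to 18 (18), other GTPases from 10 to 12 (12), interferon-gamma pathway genes from 9 to 11 (10), ubiquitin-like partners from 5 to 7 (6) and interferons and cytokines from 2 to 3 (3); the type I pathway (4) and inflammasome (6) counts did not change. Oasl1 turned to 0.20 without ferroptotic replicate 1 (limma adjusted p = 0.0338), and leaving out single libraries gave -0.22 to 0.20 for it. The cause was not tested. Same-numbered control and ferroptotic libraries did not deviate together over all genes (r = 0.01, -0.02 and -0.04). The main fit left them unpaired, but these values cannot exclude a pairing that shows in some genes only. With the replicate block 6226 genes passed and all 10 members were still called lower. The block gave Oas2 a limma adjusted p of 7.11e-05, against 0.134 in the main fit. Of 116 other named or listed genes, 13 of the 82 called lost their call at least once, Nlrc5 (11 of 14 alternatives), Atl3 (10), Map1lc3a (9) and H2-Eb1 (9) most often. Low counts limit Gbp5, Gbp6, Gbp2b, Iigp1 and Gbp10, and shared sequence limits Gbp6, Gbp10, Tgtp1, Tgtp2, 9930111J21Rik1, 9930111J21Rik2, Gvin1, Gm4070 and Gm8979.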
